A study of Mus musculus with 4 samples.

Results

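The tumour suppressor p53 and 9 of its target genes were followed in the bone marrow natural killer (NK) cells of mice without the GABP tetramer. The 10 genes were Trp53, Mdm2, Cdkn1a, Ccng1, Plk2, Plk3, Gadd45b, Sesn1, Trp53inp1 and Phlda3, each taken by its symbol in the deposited tables, where each symbol had 1 row. They are 10 of the 37310 genes in those tables. GABP is an Ets-family transcription factor whose alpha subunit binds DNA and whose beta subunits let 2 alpha-beta pairs join into a tetramer. NK cells are lymphocytes of innate immunity that lyse virus-infected cells and tumour cells. Cells sorted as CD3e-negative, NK1.1-positive and CD49b-positive came from 2 dKO samples with the genotype Gabpb1l-/-Gabpb2-/-, without Gabpb2 and without the long form of Gabpb1, and from 2 samples of littermates labelled Ctrl. All were C57BL/6 mice aged 6 to 8 weeks, and the series' design calls the samples biological replicates. RNA of cells sorted into Trizol was made into Smart-seq2 libraries. The sources used here give neither the sex of the mice nor the alleles that Ctrl mice carry nor the way the alleles were made.

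The p53 protein is a transcription factor that is kept scarce by the ubiquitin ligase Mdm2 and accumulates when DNA is damaged, ribosome assembly fails or oncogenes are active. It then turns on genes that stop the cell cycle, repair DNA, limit growth and oxidation, or kill the cell, and it turns on Mdm2, which closes a feedback loop. Its activity is set mainly at the level of the protein, so the level of Trp53 mRNA does not report it. In lymphocytes p53 guards against transformation during rapid division. Several target genes, among them Plk2, Plk3 and Gadd45b, also answer growth factors, cytokines and stress without p53.

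Gene counts summed to between 30233870 and 31469644 in the dKO libraries and between 33299226 and 34724516 in the Ctrl libraries. Gabpb2 had 85 and 86 counts in dKO, against 1244 and 1009 counts in Ctrl (log2 fold change of dKO over Ctrl -3.61 with a standard error, SE, of 0.26, edgeR adjusted p = 0.00126). The mean Gabpb1 transcript length in the RSEM tables was 1202 and 994 bases in dKO and 1407 and 1707 bases in Ctrl, shorter in both dKO libraries. The level of Gabpb1 over all its transcripts was not lower, at 81.2 and 79.4 CPM in dKO and 57.1 and 52 CPM in Ctrl (log2 fold change 0.56, SE 0.17, edgeR adjusted p = 0.273). Counts of Xist, which coats the inactive X chromosome of female cells, were 2 and 9 in dKO against 6066 and 6430 in Ctrl. For the Y-linked genes Ddx3y, Eif2s3y, Kdm5d and Uty, each dKO library had at least 1032 counts and each Ctrl library had 0. Every difference described here therefore lies between libraries that also differ in sex-linked transcripts, and genotype and sex cannot be told apart. The NK receptor genes Ncr1 and Klrb1c, which encode NKp46 and NK1.1, averaged 1403 ± 15.8 and 1474 ± 50.8 CPM in dKO and 1608 ± 264 and 1763 ± 188 CPM in Ctrl (SD, n = 2). Of the 10 NK markers 0 were called (edgeR), where 0.611% of all tested genes were. In CPM 6 were lower in both dKO libraries, where 19.9% of all tested genes were. The list summed to 10821 and 11141 CPM in dKO and 13800 and 12722 CPM in Ctrl. The smallest p there belonged to the cytotoxic granule genes Gzma (log2 fold change -0.89, edgeR adjusted p = 0.16), Prf1 (-0.51, adjusted p = 0.224) and Nkg7 (-0.56, adjusted p = 0.253). The 3 with a positive log2 fold change were Eomes (0.16), Klrd1 (0.03) and Klrk1 (0.01), and the groups overlapped for each. All NK markers given here were named outside the rule for markers.

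None of the 10 genes passed the test over all genes. Of the 10, 9 passed the filter on low counts and were tested. Of these, 0 were called at an adjusted p under 0.05 by edgeR, where 0.611% of all 13904 tested genes were called. At that share, 0 of 9 does not set these genes apart from the rest. At an unadjusted p under 0.05 there were 3, Plk3, Trp53inp1 and Plk2, against 10.6% of all tested genes. DESeq2 called 1, Plk3, where it called 2.86% of all genes, and edgeR without the filter also called Plk3 alone, where it called 2.40% of all genes. In CPM, which are counts divided by the size of the library after scaling by the trimmed mean of M-values, the groups did not overlap for 5 of the 9, and did not overlap for 41.6% of all tested genes. The median log2 fold change was 0.13 over the 9 genes and 0.01 over all tested genes. The 95% interval of the log2 fold change lay within -1 and 1 for 6 of the 9, so changes of 2-fold or more lie outside the unadjusted interval for Trp53, Mdm2, Ccng1, Gadd45b, Sesn1 and Trp53inp1.

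**Figure D1:**
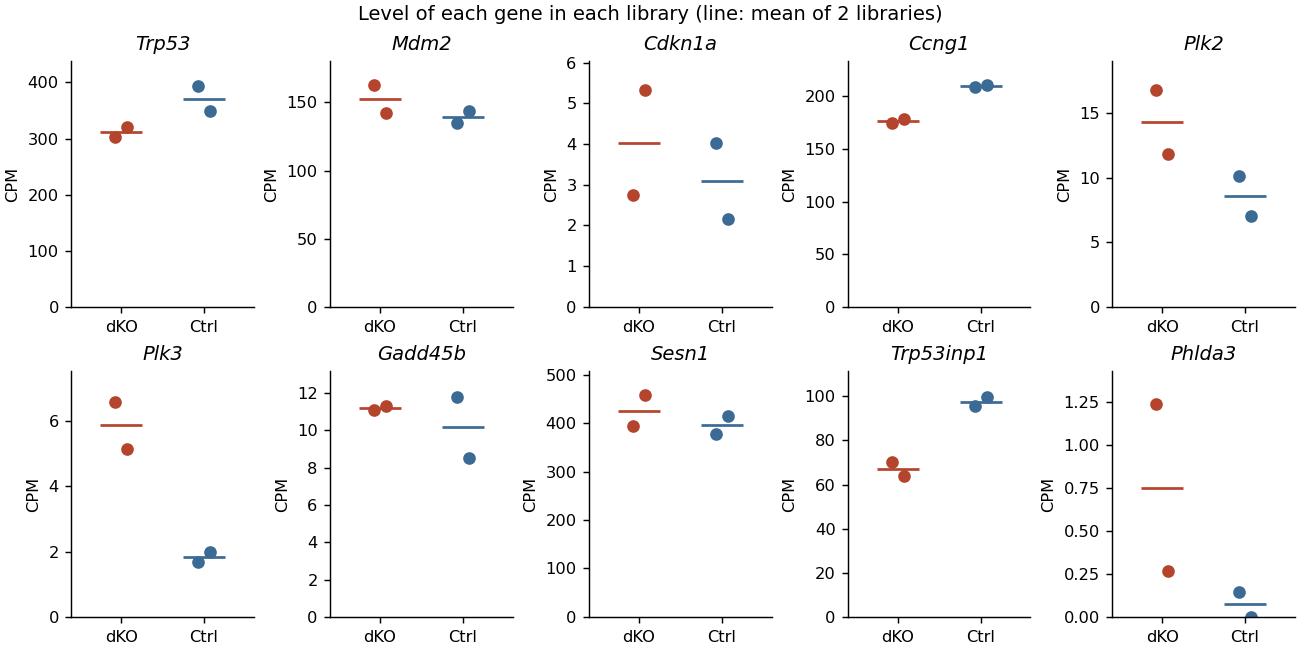
Level of each of the 10 genes in CPM on a linear axis from 0, in 2 dKO and 2 Ctrl libraries, with points for libraries and a line for the mean of 2. Both dKO points lie above both Ctrl points for Plk2, Plk3 and Phlda3 and below them for Trp53, Ccng1 and Trp53inp1.

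Trp53 (ENSMUSG00000059552.6, chromosome 11, 69580359 to 69591873 on GRCm38), which encodes p53, was abundant and somewhat lower in dKO. Its level was 302.3 and 320.2 CPM in dKO and 393.7 and 349 CPM in Ctrl. Both dKO libraries were below both Ctrl libraries, by a log2 fold change of -0.25 (SE 0.15, 95% interval -0.60 to 0.09, edgeR adjusted p = 0.628). That difference did not pass, and its interval allows a level in dKO between 0.66 and 1.06 times that in Ctrl. In TPM, which divides by transcript length, Trp53 averaged 301.9 ± 12.2 in dKO and 365.4 ± 14.4 in Ctrl (SD, n = 2), above 95.9% and 96.8% of the tested genes. In bulk RNA, fewer cells of a type and less RNA per cell cannot be told apart.

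Mdm2 (ENSMUSG00000020184.8, chromosome 10, 117688875 to 117710758 on GRCm38), the ubiquitin ligase that marks p53 for destruction and is itself a p53 target, had 162.6 and 142.5 CPM in dKO and 134.9 and 143.9 CPM in Ctrl. The groups overlapped, since dKO 2 was below Ctrl 2. The log2 fold change was 0.13 (SE 0.16, 95% interval -0.23 to 0.49, edgeR adjusted p = 0.852). The promoter windows of both regulators are shown because they hold letters that match motifs of p53 and of Ets factors, the family of GABP. Each window runs from 250 bases before to 50 bases after a RefSeq transcript start on GRCm38.p6, 5′ to 3′ on the gene's strand, and positions count from 1 at its 5′ end. In the Mdm2 window (chr10:117710709-117711008, minus strand) the capitals mark a p53 half-site at bases 65 to 74 and CTTCCGG, the reverse complement of CCGGAAG, at bases 243 to 249.
Mdm2: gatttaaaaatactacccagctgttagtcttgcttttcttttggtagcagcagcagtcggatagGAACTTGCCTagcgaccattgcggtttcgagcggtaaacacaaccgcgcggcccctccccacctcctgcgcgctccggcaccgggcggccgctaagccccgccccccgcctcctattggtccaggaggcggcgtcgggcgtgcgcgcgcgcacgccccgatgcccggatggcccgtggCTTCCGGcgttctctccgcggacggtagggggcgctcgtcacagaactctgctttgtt
In the Trp53 window (chr11:69580109-69580408, plus strand) a stretch with 10 bases on each side is shown, in which CGGAAG at bases 171 to 176 and a p53 half-site at bases 176 to 185 share 1 base.
Trp53: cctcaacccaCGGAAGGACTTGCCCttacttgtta
Windows were available for 9 of the 10 genes, 11 windows in all, with no entry for Trp53inp1. The motif CCGGAAG, on either strand, was in 1 of the 11 windows and in 8.86% of all 32851 windows. The shorter CGGAAG, which CCGGAAG contains, was in 2 of the 11 and in 16.9% of all. The p53 half-site, searched by its consensus on both strands with no mismatch, was in 5 of the 11 and in 8.36% of all. A match describes the letters and is not a measured binding site.

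Among the 5 genes that act on the cell cycle, the kinase genes Plk3 and Plk2 were higher in both dKO libraries and Ccng1 was lower, none past the test, while the groups overlapped for Cdkn1a and Gadd45b. Cdkn1a (ENSMUSG00000023067.7, chromosome 17, 29090976 to 29100727 on GRCm38) encodes p21, the inhibitor of cyclin-dependent kinases through which p53 stops the cell cycle, and is the most used readout of p53 activity. It was weakly expressed, with 2.74 and 5.33 CPM in dKO and 4.02 and 2.17 CPM in Ctrl. The libraries of the groups alternated in level, with dKO 2 highest and Ctrl 2 lowest, and the log2 fold change of 0.38 (SE 0.50, 95% interval -0.77 to 1.53, edgeR adjusted p = 0.865) did not pass. The counts behind it were 88 and 161 in dKO and 137 and 72 in Ctrl, and the interval runs from 0.585 to 2.9 times the Ctrl level. Without dKO 2 the log2 fold change was -0.18 and without Ctrl 1 it was 0.89, so its direction rests on single libraries.

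Cdkn1a has 2 transcript starts in the RefSeq table, whose windows begin 2790 bases apart. The upstream window (chr17:29090729-29091028, plus strand) is shown because it was the only 1 of the 11 windows with a p53 full element when no mismatch was allowed. The match was 2 half-sites with a spacer of 12 bases (up to 13 were allowed) at bases 178 to 209. Such a pair was in 24 of all 32851 windows, or 0.0731%. Capitals mark the half-sites found with no mismatch. The bases tgacatgttc, directly after the second of them, differ from the consensus only at their first base and so were not counted.
Cdkn1a: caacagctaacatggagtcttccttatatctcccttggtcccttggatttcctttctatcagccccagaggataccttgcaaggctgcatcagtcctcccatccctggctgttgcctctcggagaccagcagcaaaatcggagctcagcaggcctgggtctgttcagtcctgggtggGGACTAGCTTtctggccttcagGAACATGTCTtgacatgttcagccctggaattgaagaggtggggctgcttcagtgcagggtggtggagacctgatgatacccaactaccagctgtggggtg

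Ccng1 (ENSMUSG00000020326.7, chromosome 11, 40748552 to 40755311 on GRCm38), a p53 target that encodes cyclin G1, a partner of a phosphatase that acts on Mdm2, had 174.3 and 178 CPM in dKO and 208.8 and 210.4 CPM in Ctrl. Both dKO libraries were lower, and the libraries of a group lay within a few CPM of each other. The log2 fold change was -0.25 (SE 0.14, 95% interval -0.58 to 0.08, edgeR adjusted p = 0.623) and stayed between -0.27 and -0.24 with any library left out. A p53 half-site lies at bases 66 to 75 of its window (chr11:40755237-40755536, minus strand), shown in capitals with 10 bases on each side.
Ccng1: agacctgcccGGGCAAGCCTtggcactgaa

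Plk3 (ENSMUSG00000028680.8, chromosome 4, 117128655 to 117133963 on GRCm38), a stress-responsive kinase of the polo-like family, had the largest fold of the tested genes here, at 6.6 and 5.16 CPM in dKO and 1.67 and 1.99 CPM in Ctrl. The lowest dKO library was above the highest Ctrl library, which holds for 21.7% of all tested genes in that direction. The mean in dKO was 3.21 times that in Ctrl (log2 fold change 1.68, SE 0.40, 95% interval 0.76 to 2.60), with an edgeR adjusted p = 0.155, so it did not pass. DESeq2 gave an adjusted p = 0.0387 and edgeR without the filter on low counts gave 0.0255, and over all 15 alternatives the adjusted p was between 0.0255 and 0.563. The counts were low, 212 and 156 in dKO against 57 and 66 in Ctrl. RSEM, which splits reads among transcripts, gave 76 and 57 expected counts in dKO and 16 and 20 in Ctrl. Over genes with more than 50 expected counts, whole-number counts were a median of 2.05 to 2.07 times the expected counts. On GRCm38 Plk3 shares 84 bases with Tctex1d4 on the other strand, whose counts were 86 and 66 in dKO and 33 and 46 in Ctrl, and whether strand was used in counting is not stated. None of the motifs searched was found in the Plk3 window (chr4:117133914-117134213, minus strand), which is shown because this gene differed most.
Plk3: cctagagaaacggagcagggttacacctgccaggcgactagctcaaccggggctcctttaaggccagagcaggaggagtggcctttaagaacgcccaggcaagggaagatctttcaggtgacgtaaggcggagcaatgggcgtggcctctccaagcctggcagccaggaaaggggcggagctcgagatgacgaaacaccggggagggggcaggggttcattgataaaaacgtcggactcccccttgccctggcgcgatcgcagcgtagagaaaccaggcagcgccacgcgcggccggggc

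Plk2 (ENSMUSG00000021701.7, chromosome 13, 110395046 to 110400844 on GRCm38), another polo-like kinase and an early-response gene, had 16.8 and 11.8 CPM in dKO and 10.1 and 7.05 CPM in Ctrl. Both dKO libraries were above both Ctrl libraries in CPM, by a log2 fold change of 0.74 (SE 0.32, 95% interval 0.02 to 1.47, edgeR adjusted p = 0.458). In the authors' TPM the groups overlapped, with 7.15 and 3.58 TPM in dKO and 3.86 and 3.2 TPM in Ctrl. Its window (chr13:110394794-110395093, plus strand) holds TGACGTCA, the palindrome that cyclic AMP response factors bind, at bases 189 to 196. That motif was in 1.79% of all windows and is capitalised here with 10 bases on each side.
Plk2: gcgctcgccgTGACGTCAcgaggccccg

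Gadd45b (ENSMUSG00000015312.8, chromosome 10, 80930073 to 80932204 on GRCm38), a stress sensor that feeds the p38 and JNK kinase pathways, had 11.1 and 11.3 CPM in dKO and 11.8 and 8.5 CPM in Ctrl. Both dKO libraries lay between the Ctrl libraries. The log2 fold change was 0.15 (SE 0.29, 95% interval -0.52 to 0.81, edgeR adjusted p = 0.918), and it was -0.07 without Ctrl 2.

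Some immediate early genes, which stimuli and handling of cells switch on within minutes, rose in the libraries in which Plk3 and Plk2 were higher. Of 23 listed genes 5 rose and 0 fell (edgeR, adjusted p under 0.05), where 0.316% of all tested genes rose, and the summed level of the list was between 4869 and 5726 CPM in dKO and between 3953 and 4185 CPM in Ctrl. Fosb averaged 16.3 ± 2.43 CPM in dKO and 2.11 ± 0.164 CPM in Ctrl (SD, n = 2), and Fos averaged 489.6 ± 39 CPM in dKO and 204.4 ± 10.2 CPM in Ctrl. Dusp2, Klf4 and Jun were the other genes that rose, and Fosb and Fos were called in 16 of 16 fits. The list did not move as 1 block, since 15 genes had a positive and 8 a negative log2 fold change and the groups overlapped in CPM for 11. Egr1 (-0.68, SE 0.19, edgeR adjusted p = 0.222), Egr2 (-0.56, SE 0.22, adjusted p = 0.409) and Klf2 (-0.31, SE 0.21, adjusted p = 0.694), named after their values were seen, were lower in both dKO libraries without passing. Without dKO 1 the list had 2 called genes, and without dKO 2 it had 3. The part of these genes in the levels of Plk3 and Plk2 was not tested.

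**Figure D2:**
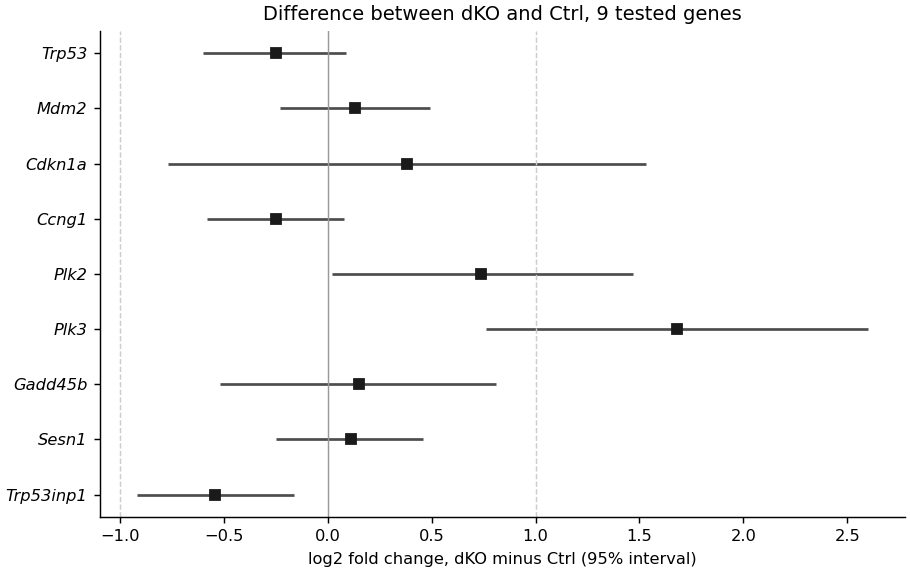
Log2 fold change of dKO over Ctrl (squares) with its 95% interval from the edgeR fit (lines) for the 9 tested genes, with dashed lines at 2-fold in each direction. The intervals of Plk3, Plk2 and Trp53inp1 exclude 0 before adjustment, and that of Cdkn1a is the widest, from -0.77 to 1.53.

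The genes of redox control, autophagy and survival signalling had no common direction. Sesn1 (ENSMUSG00000038332.6, chromosome 10, 41809935 to 41908424 on GRCm38) encodes sestrin 1, which lowers mTORC1 activity and protects against oxidation, and was the second most abundant of the 10 per length. It had 393.4 and 457.1 CPM in dKO and 376.7 and 414 CPM in Ctrl. The groups overlapped, and the log2 fold change of 0.11 (SE 0.15, 95% interval -0.25 to 0.46, edgeR adjusted p = 0.885) did not pass. Of its 2 windows, the downstream one (chr10:41887189-41887488, plus strand) holds a p53 half-site at bases 78 to 87, in capitals.
Sesn1: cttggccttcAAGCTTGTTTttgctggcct

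Trp53inp1 (ENSMUSG00000028211.5, chromosome 4, 11156431 to 11174379 on GRCm38), a p53 target whose protein promotes autophagy and cell death, had 70.3 and 64 CPM in dKO and 95.4 and 99.5 CPM in Ctrl. Both dKO libraries were well below both Ctrl libraries. Its mean in dKO was 0.689 times that in Ctrl (log2 fold change -0.54, SE 0.16, 95% interval -0.92 to -0.16), with an edgeR adjusted p = 0.275, so it did not pass. The direction was negative under each of the 15 alternatives, with log2 fold changes between -0.61 and -0.47 and adjusted p between 0.151 and 0.684. Its paralog Trp53inp2, which also acts in autophagy, lay the other way, at 62.8 and 103 CPM in dKO and 29.3 and 44.8 CPM in Ctrl (log2 fold change 1.16, SE 0.29, edgeR adjusted p = 0.177). This paralog passed in 3 of 16 fits.

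Phlda3 (ENSMUSG00000041801.5, chromosome 1, 135766119 to 135769136 on GRCm38), a p53 target that restrains the kinase Akt, was nearly silent. It had 40 and 8 counts in dKO and 5 and 0 counts in Ctrl, did not pass the filter on low counts and has no test. The floor of 3 counts corresponds to 0.0904 CPM in Ctrl 2, where it had no count, and most of the dKO counts came from dKO 1.

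Most markers of T cells were lower in the same libraries as Trp53, Ccng1 and Trp53inp1. Of 12 T cell markers 3 fell and 0 rose (edgeR, adjusted p under 0.05), where 0.295% of all tested genes fell. In CPM 10 of the 12 were lower in both dKO libraries, where 19.9% of all tested genes were. The summed level of the 12 was between 712.4 and 797 CPM in dKO and between 976.1 and 1097 CPM in Ctrl. Most of that sum came from Trbc1 and Trbc2. Trbc1 had 487.5 and 298 CPM in dKO and 356 and 317.4 CPM in Ctrl, so its groups overlapped (log2 fold change 0.22). Trbc2 had 239.8 and 312.4 CPM in dKO and 383 and 331.2 CPM in Ctrl. Cd3e, part of the T cell receptor complex and the surface protein the sort selected against, averaged 10.6 ± 2.37 CPM in dKO and 50 ± 3.53 CPM in Ctrl (SD, n = 2), and Trac and Tcrg-C were the others that fell. None of the T cell markers was at 0 in every library. Other marker lists were lower in the same libraries, with 0 calls each. The dendritic cell and monocyte markers summed to 352.7 and 483.2 CPM in dKO and 705.6 and 657.1 CPM in Ctrl. Ly6c2, Itgax and Bst2 made up most of this sum in each library. Itgax had 176.7 and 202.6 CPM in dKO and 242.8 and 198.7 CPM in Ctrl. Csf1r averaged 34.3 CPM in dKO and 33.8 CPM in Ctrl. Of the 8 genes in the list 3 were lower in both dKO libraries, where 19.9% of all tested genes were. Ly6c2 was among them, averaging 145.3 CPM in dKO and 347.9 CPM in Ctrl. Flt3 was higher in both dKO libraries, and the groups overlapped for the other 4, Siglech, Itgax, Csf1r and Cd14. Sums of this list and of the NK list, given above, did not overlap between the groups, while the B lineage, neutrophil and erythroid sums overlapped. The part of these transcripts in the levels of Trp53, Ccng1 and Trp53inp1 was not tested.

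**Figure D3:**
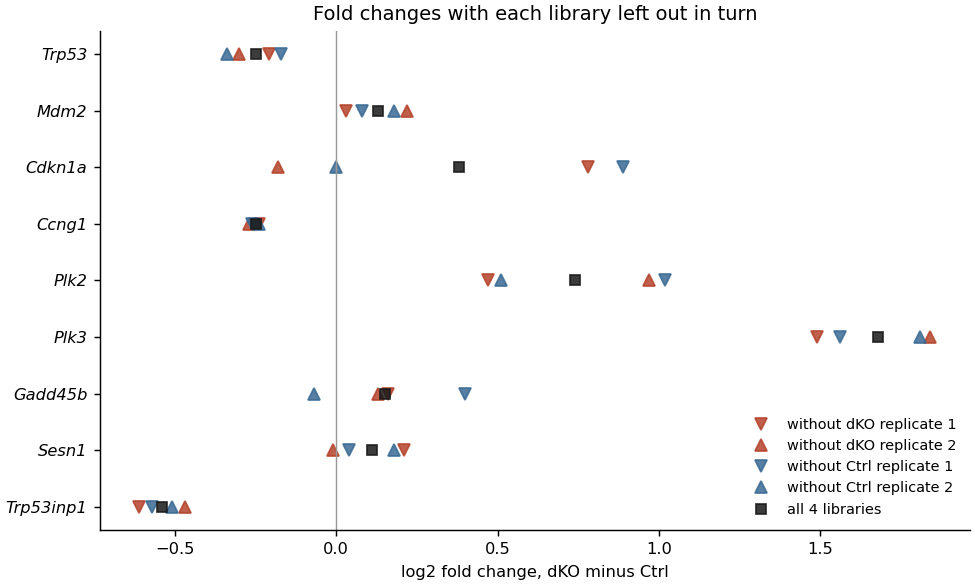
Log2 fold change of dKO over Ctrl with all 4 libraries (squares) and with each library left out in turn (triangles). The points of Trp53, Ccng1 and Trp53inp1 stay below 0 and those of Mdm2, Plk2 and Plk3 above it, while Cdkn1a runs from -0.18 to 0.89.

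Per length, the order of the 10 genes was the same in both groups. Mean TPM was highest for Trp53, then Sesn1 with 275.4 ± 7.06 in dKO and 257.2 ± 28.1 in Ctrl (SD, n = 2), Mdm2 with 134.9 ± 33.7 in dKO and 118.1 ± 3.19 in Ctrl, Ccng1 with 81.8 ± 5.81 in dKO and 97.7 ± 4.41 in Ctrl, and Trp53inp1 with 42.6 ± 8.1 in dKO and 63.4 ± 3.54 in Ctrl. Gadd45b followed, with 16.5 ± 0.431 TPM in dKO and 15.8 ± 2.92 TPM in Ctrl. The remaining genes were near the lower end. Plk2 had 5.37 ± 2.52 TPM in dKO and 3.53 ± 0.467 TPM in Ctrl, and Cdkn1a had 4.47 ± 2.04 TPM in dKO and 3.32 ± 1.55 TPM in Ctrl, so these neighbours did not differ beyond their spread. Plk3 had 3.15 ± 0.757 TPM in dKO and 0.845 ± 0.219 TPM in Ctrl. In Ctrl its level was above 17.8% of the tested genes, and in dKO above 30.5%.

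Of 24 listed regulators of p53, 23 were tested, 0 rose and 0 fell (edgeR), where 0.611% of all tested genes were called. An unadjusted p under 0.05 was found for 3, against 10.6% of all tested genes, so neither count sets the list apart. The median log2 fold change was -0.09. Ppm1d, a p53 target that encodes the phosphatase Wip1 and switches p53 signalling off, had the smallest p. It had 32.4 and 39.5 CPM in dKO and 13 and 17 CPM in Ctrl (log2 fold change 1.27, SE 0.24, edgeR adjusted p = 0.077). That gene missed the threshold here and passed it with DESeq2, without the filter, with a stricter filter, with RSEM counts and without Ctrl 2, with adjusted p between 0.000129 and 0.236 over all 16 fits. Chek1, a kinase of the replication checkpoint, had 1.59 and 3.67 CPM in dKO and 13.7 and 3.89 CPM in Ctrl (log2 fold change -1.75, SE 0.64, edgeR adjusted p = 0.389), with Ctrl 1 far above the other libraries, and passed only without the filter on low counts. Pml, which organises nuclear bodies where p53 is modified, had a log2 fold change of -0.37 (SE 0.16, adjusted p = 0.452). The damage kinase gene Atm (-0.27, SE 0.23) and the p53 inhibitor gene Mdm4 (0.45, SE 0.28), named after their values were seen, did not pass. Cdkn2a, whose Arf product blocks Mdm2, had 0 counts in all 4 libraries.

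Further p53 targets did not move one way. Of 14 tested genes of arrest and repair 0 were called (edgeR), where 0.611% of all tested genes were. In that list 7 had a positive and 7 a negative log2 fold change, and the median was 0.03. An unadjusted p under 0.05 was found for 1 of the 14, against 10.6% of all tested genes. In CPM 4 were higher in both dKO libraries and 6 were lower, against 21.7% and 19.9% of all tested genes. The smallest p there belonged to the nucleotide excision repair gene Ercc5 (log2 fold change -0.80, SE 0.25, adjusted p = 0.281), followed by Zfp365 (-1.35, SE 0.59) and the damage sensor gene Ddb2 (0.59, SE 0.26). Of 23 tested genes of death and metabolism 0 were called, against the same 0.611% of all tested genes. Of these 10 were positive and 13 negative, with a median of -0.22. For 5 of the 23 the unadjusted p was under 0.05, and in CPM 3 were higher in both dKO libraries and 6 lower. Pmaip1, which encodes the death-promoting protein Noxa, had 3.52 and 4.2 CPM in dKO and 10.8 and 9.55 CPM in Ctrl (log2 fold change -1.40, SE 0.32, edgeR adjusted p = 0.135). In the same list Bbc3, which encodes the related protein Puma and was named after its value was seen, had a log2 fold change of 0.55 (SE 0.23, adjusted p = 0.455). Ass1, a urea cycle enzyme gene, had -1.56 (SE 0.39, adjusted p = 0.172) and Sesn2, the paralog of Sesn1, had -0.52 (SE 0.20, adjusted p = 0.406). Pmaip1 and Ass1 passed with DESeq2 and without the filter.

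Paralogs of the 10 genes gave 0 calls among 12 tested (edgeR), where 0.611% of all tested genes were called. Their median log2 fold change was 0.37. An unadjusted p under 0.05 was found for 5 of the 12, against 10.6% of all tested genes. In CPM 6 were higher in both dKO libraries and 2 were lower, against 21.7% and 19.9% of all tested genes. Besides Trp53inp2, the smallest p belonged to Gadd45g, at 91.1 and 58.5 CPM in dKO and 47.5 and 36.5 CPM in Ctrl (log2 fold change 0.83, SE 0.25, adjusted p = 0.273), and to the mitotic kinase gene Plk1, at 11.8 and 20.5 CPM in dKO and 37.6 and 25 CPM in Ctrl (log2 fold change -0.96, SE 0.32, adjusted p = 0.331). Plk1, which drives mitosis, thus lay opposite to Plk2 and Plk3 and, like Plk3, passed without the filter. The family members Trp63 and Trp73 had at most 10 counts in any library.

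Of the cyclins, cyclin-dependent kinases and other partners of p21, 13 of 15 tested genes were below 0 in log2 fold change (median -0.66). The main edgeR fit called 0 of them, where it called 0.611% of all tested genes. Without the filter 6 of the 15 were called, where 2.40% of all genes were, and DESeq2 called 5, where it called 2.86% of all genes. In CPM, 10 of the 15 were lower in both dKO libraries than in both Ctrl libraries, where 19.9% of all tested genes were. Cdk2, the kinase that p21 inhibits at the entry to S phase, had 20.7 and 20 CPM in dKO and 51.7 and 40.9 CPM in Ctrl (log2 fold change -1.19, SE 0.21, edgeR adjusted p = 0.0618). It passed in 5 of 16 fits. Its partner gene Ccne2 had 14.1 and 14.7 CPM in dKO and 47.8 and 25.2 CPM in Ctrl (log2 fold change -1.35, SE 0.31, adjusted p = 0.149). Pcna, the replication clamp that p21 also binds and that is a p53 target, lay the other way. It had 25.3 and 41.6 CPM in dKO and 16.5 and 11.7 CPM in Ctrl (log2 fold change 1.25, SE 0.30, edgeR adjusted p = 0.166). Over 16 fits the log2 fold change of Pcna ran from 0.35 to 1.56, and its mean TPM was 18.9 in dKO and 11.8 in Ctrl. The fits that called Pcna included a block on crossed replicate numbers, chosen after seeing the data. Ccne2 and Pcna each passed in 3 of 16 fits. Of the 10 neutrophil lineage markers 0 were called, and the list summed to between 1332 and 2195 CPM in dKO and between 2163 and 2743 CPM in Ctrl. In that list 8 had a negative and 2 a positive log2 fold change, and the groups overlapped in CPM for 7. The other 3 were lower in both dKO libraries without passing, a position held by 19.9% of all tested genes. They were Mpo (log2 fold change -1.97, SE 0.47), Elane (-1.99, SE 0.42) and Prtn3 (-1.75, SE 0.54). Mpo had 59.7 and 55.5 CPM in dKO and 348.5 and 103.6 CPM in Ctrl. None of those markers was at 0 in every library, and their part in the cyclin levels was not tested.

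**Figure D4:**
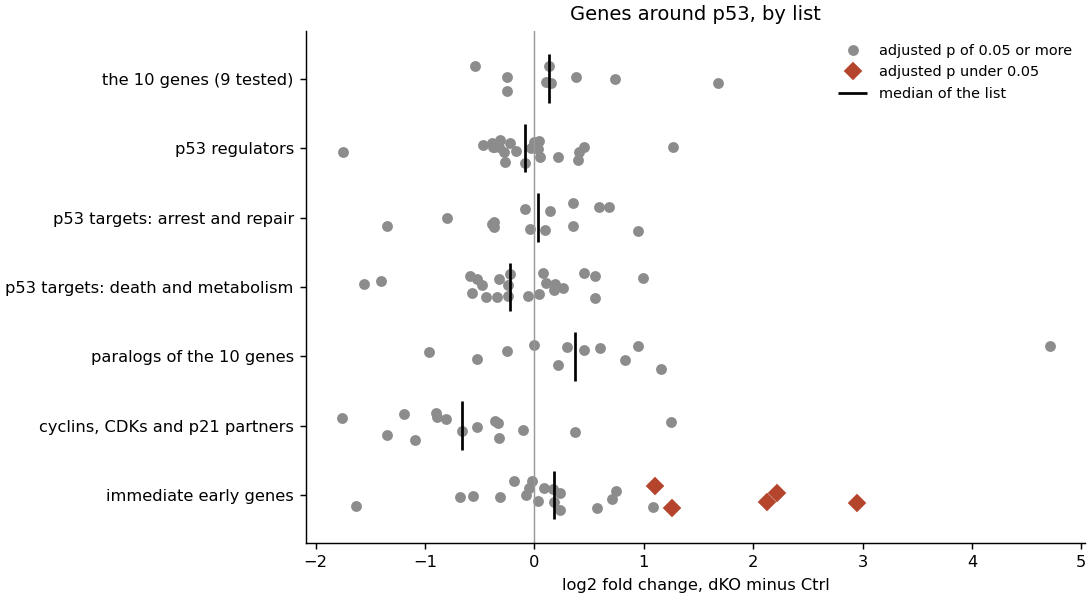
Log2 fold change of dKO over Ctrl for each tested gene of the 10 and of 6 lists, 1 point a gene, with the list's median as a vertical line and genes with an edgeR adjusted p under 0.05 as red diamonds. The called genes all belong to the immediate early list, the cyclin list has the lowest median, at -0.66, and the point at 4.71 is Cdkn1c, a paralog of Cdkn1a, with 12 and 18 counts in dKO and 1 and 0 counts in Ctrl.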

How the data were processed

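Whole-number counts per gene were deposited by the authors for each library, with added rows for reads given to no gene. Those rows held 23.8% and 24.3% (dKO) and 18.1% and 21.5% (Ctrl) of counted reads outside any gene and 2.20% to 2.34% ambiguous reads, and were left out. The authors also deposited RSEM tables whose headers name expected counts, TPM and FPKM, and TPM gave the levels per length. FPKM values, deposited by the authors in the same tables, were not used. Per the submitters' processing notes, the build was mm9 and the tools included TopHat2 2.1.1 and Trimmomatic 0.36, HTSeq 0.6.1 and RSEM 1.3.0, and FastQC 0.11.5 and DESeq2 1.32.0. Neither an annotation release nor the use of strand in counting is stated there. Whole-number counts were a median of 2.05 to 2.07 times the expected counts, so counting error may be larger than the whole-number counts alone give.

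The main test was edgeR's robust quasi-likelihood fit on the whole-number counts (version 4.0.16, TMM scaling, filterByExpr with a minimum count of 10) in R 4.3.3 over 13904 genes, with Benjamini-Hochberg adjustment and a threshold of 0.05. Fold changes are dKO over Ctrl. The SE was derived from the F statistic, and the 95% intervals, which are unadjusted, use the t distribution with the fit's degrees of freedom. The procedure was checked on simulated counts. With 2 libraries a group, p-values rest on the spread shared across genes. The members and lists were chosen with earlier results of these data known. Lists share Mdm4, Sesn2 and Gadd45a. Named are the 10 genes, called genes of each list and otherwise the 3 with the smallest p. Of the marker lists the rule names called genes, and others named from them were chosen outside it. The NK list held 0 calls among 10 genes, the B lineage list 0 among 10, the erythroid list 0 among 7 and the dendritic cell and monocyte list 0 among 8. Motifs and promoter stretches were chosen after the sequences were seen. Sequences are from RefSeq (GRCm38.p6), which is not the build of the counts.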

Additional observations from a re-analysis of the deposited data

How the results depend on the processing

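Alternatives were other scalings, no filter, a stricter filter (at least 50 counts in each library of 1 group), DESeq2 1.42.0, limma-voom 3.58.1, a fit that was not robust, RSEM expected counts, the replicate number as a block and leaving out each library. The count of 85 called genes was 559 without the filter, 170 with the stricter filter, 398 with DESeq2 and between 73 and 187 with a library left out, and 187 was reached without Ctrl 2. Calls among the 10 genes numbered 0, against 1 without the filter and 1 with DESeq2, Plk3 in both, and 0 with any library left out. Plk3 had a log2 fold change of 1.67 in both. With a library left out, log2 fold changes ran from -0.18 to 0.89 for Cdkn1a and from -0.01 to 0.21 for Sesn1, both lowest without dKO 2, and from -0.07 to 0.40 for Gadd45b, lowest without Ctrl 2. These sign changes came in values that were not called. The cause was not tested. The other directions of the 9 genes held in the alternatives run. Labels pair the groups by number only. Over 9364 genes the deviations of same-numbered libraries correlated at -0.176. The replicate block gave 100 called genes and 0 of the 10, and the crossed pairing, chosen after seeing the data, gave 156 and 0. Without the filter (2.40% of all genes called), 6 of the cyclin list were called, 3 paralogs, 2 regulators and 2 targets of death and metabolism, and with DESeq2 (2.86% of all genes) these were 5, 1, 1 and 2. Phlda3, with at most 40 counts in a library, did not pass the filter at this depth. For Cdkn1a the libraries of a group differed by more than the groups did (88 and 161 counts in dKO, 137 and 72 in Ctrl).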

Other observations

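Phlda3 was tested in the fits whose filter it passed. Its log2 fold change was 3.28 (SE 1.55, edgeR adjusted p = 0.471) without the filter, 7.60 (SE 2.61) without Ctrl 1, 2.34 (SE 1.48) without Ctrl 2 and 4.01 (SE 1.99) without dKO 2, and it passed in none of them. Without Ctrl 1 the remaining Ctrl library had 0 counts, so that value depends on the prior count and sets no bound. The others rest on 5 counts in Ctrl 1.

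RSEM's mean transcript length, which moves with the mix of isoforms, was 2378 and 2362 bases for Plk3 in dKO and 2286 and 2161 bases in Ctrl. For Cdkn1a it was 1107 and 1082 bases in dKO and 1173 and 1431 bases in Ctrl, on 24 and 49 expected counts in dKO and 45 and 27 in Ctrl. Both sets of lengths rest on few reads. For Mdm2, with 9 transcripts in the table and 2080 or more expected counts in each library, it was 1924 and 2068 bases in dKO and 1941 and 2098 bases in Ctrl, higher in replicate 2 of both groups.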
